A study of Homo sapiens with 6 samples.

Results

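SORBS2 and SORBS3 are members of the sorbin and SH3 domain family of adaptor genes. All transcript models carrying either gene name were taken from 1 merged transcript assembly of human pancreatic beta cells, which gave 2 gene names of 25211. SORBS2 had 23 models and SORBS3 had 2, of 55083 in the whole assembly. SORBS2 was selected on its 14 joined models, and SORBS3 was taken along as its relative. A joined model is an assembled transcript that shares splice junctions with a RefSeq transcript but has an intron chain of its own. The remaining 9 SORBS2 models and both SORBS3 models were RefSeq transcripts. Over the whole assembly, 12.4% of the 21516 gene names with a multi-exon RefSeq transcript had at least 1 joined model. Since the number of joined models chose SORBS2, that share is given for context only.

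The cells were EndoC-βH1, an established human beta cell line. In the 3 induced libraries the cells carried a lentiviral short hairpin RNA aimed at the promoter of INS, the insulin gene, and stood in doxycycline for 7 days to switch the hairpin on. The labels give its concentration as 1 mg/mL, and whether that unit is right could not be checked here. In the 3 negative control libraries no doxycycline was added. The drug was thus present in the induced group alone, and each library was made from 10 ng of RNA. The assembly is 1 merged file for the whole series and carries no abundance. None of its 555595 exon lines had a number in the score column. Depth, the level of SORBS2 or SORBS3 in either group, the effect of the hairpin and the beta cell markers of the line could not be measured. RefSeq transcripts stand in the file whether or not these cells make them, so the structures below are a description of models, without replicates and with no direction between the groups.

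SORBS proteins carry a sorbin homology region and, near their end, a row of SH3 domains that bind proline-rich partners. They link the actin cytoskeleton and cell adhesion sites, through partners such as vinculin and the ABL kinases, to signalling proteins. SORBS2, also called ArgBP2, is best known from heart muscle and neurons, and its neuronal form holds an additional segment with a zinc finger. SORBS3, also called vinexin, is known in a long alpha form with the sorbin homology region and a short beta form without it.

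On hg19, SORBS2 occupied chr4:186506598-186877870 on the minus strand, a span of 371273 bases in which its locus held no other gene name. The 23 models were built from 36 distinct exons and 44 distinct introns. They began at 7 first exons in 6 start site groups and all ended in the same last exon, chr4:186506598-186508842, of 2245 bases. The models differed in their first exons, in alternative exons and splice acceptors, and in which of 5 start codons opened the longest frame. The start codons of the longest reading frames are shown first, because they decide where each protein would begin. Each is given 5′ to 3′ on the minus strand of hg19 with the ATG in capitals.
Start codon in the 50-base exon, chr4:186611717-186611737: tccaaggtgaaaATGaacaca
Start codon in the 93-base exon and its 89-base form, chr4:186605960-186605980: aaacgtgccgccATGtctgtt
Start codon in the 642-base exon, chr4:186598634-186598654: cttcagggaactATGtattcc
Start codon in the 139-base exon, chr4:186583343-186583363: gccgtgagtcccATGagttac
Start codon in the 355-base first exon, chr4:186577784-186577804: gccggggacaggATGaaagca

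The start sites fell into a far 5′ site, a cluster of 3 sites, and 2 sites further into the gene. The farthest, at position 186877870, was followed 144460 bases downstream by the cluster. Each counted from the site before it, the next sites of the cluster lay 1152 and 210 bases on, and the 2 sites after the cluster lay 34982 and 118943 bases on. The far 5′ first exon, chr4:186877350-186877870 with 521 bases, opened 2 joined models and 2 RefSeq transcripts, and their frames of 1085 to 1414 amino acids were all long. The 593-base first exon, chr4:186732818-186733410, also opened 2 joined models and 2 RefSeq transcripts. The 211-base first exon, chr4:186696856-186697066, opened 4 joined models and 1 RefSeq transcript. The most 3′ first exon, chr4:186577769-186578123 with 355 bases, opened 1 joined model and 2 RefSeq transcripts. Of all first exons it is the only one that carries a start codon used by its models, and its transcripts had as few as 492 amino acids.

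The middle of the cluster held the one exon of SORBS2 that no RefSeq transcript in the assembly contained. This first exon, chr4:186731902-186732258 with 357 bases, had the start of the 167-base RefSeq first exon, chr4:186732092-186732258, and the splice donor of the 147-base RefSeq first exon, chr4:186731902-186732048. It opened 4 joined models and 0 RefSeq transcripts. The 167-base exon opened 1 joined model and 1 RefSeq transcript, and the 147-base exon opened 0 joined models and 1 RefSeq transcript. Both exons that use the donor at 186731902 were spliced straight to the 50-base exon, past a 140-base exon at chr4:186696381-186696520 that 9 joined models and 6 RefSeq transcripts included. GENCODE release 44 on GRCh37 held the 357-base exon in 0 transcripts and the 167- and 147-base exons in 2 each. The far 5′ 521-base and the 593-base exon also had 0 exact counterparts in GENCODE, although their RefSeq intron chains were there. In all, 33 of the 36 exons had an exact counterpart.

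The 250 bases before each start site held few CpG dinucleotides. In 5′ to 3′ order along the gene, the 6 windows had GC contents of 36.8%, 42.4%, 37.6%, 48.4%, 40.8% and 36.4%, and 1, 5, 3, 4, 2 and 4 CpG. The median of 35116 RefSeq promoter windows was 58% GC and 11 CpG. Every SORBS2 window, placed by the assembly's start sites rather than by RefSeq's, was thus below both medians. RefSeq's newer table of promoters had 8 windows for SORBS2, all found once on hg19. The nearest of their start sites lay 344, 62, 0, 0, 58 and 223 bases from the assembly's sites in the same order, so the cluster's middle and last sites were the ones RefSeq placed at the same base.

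**Figure D1:**
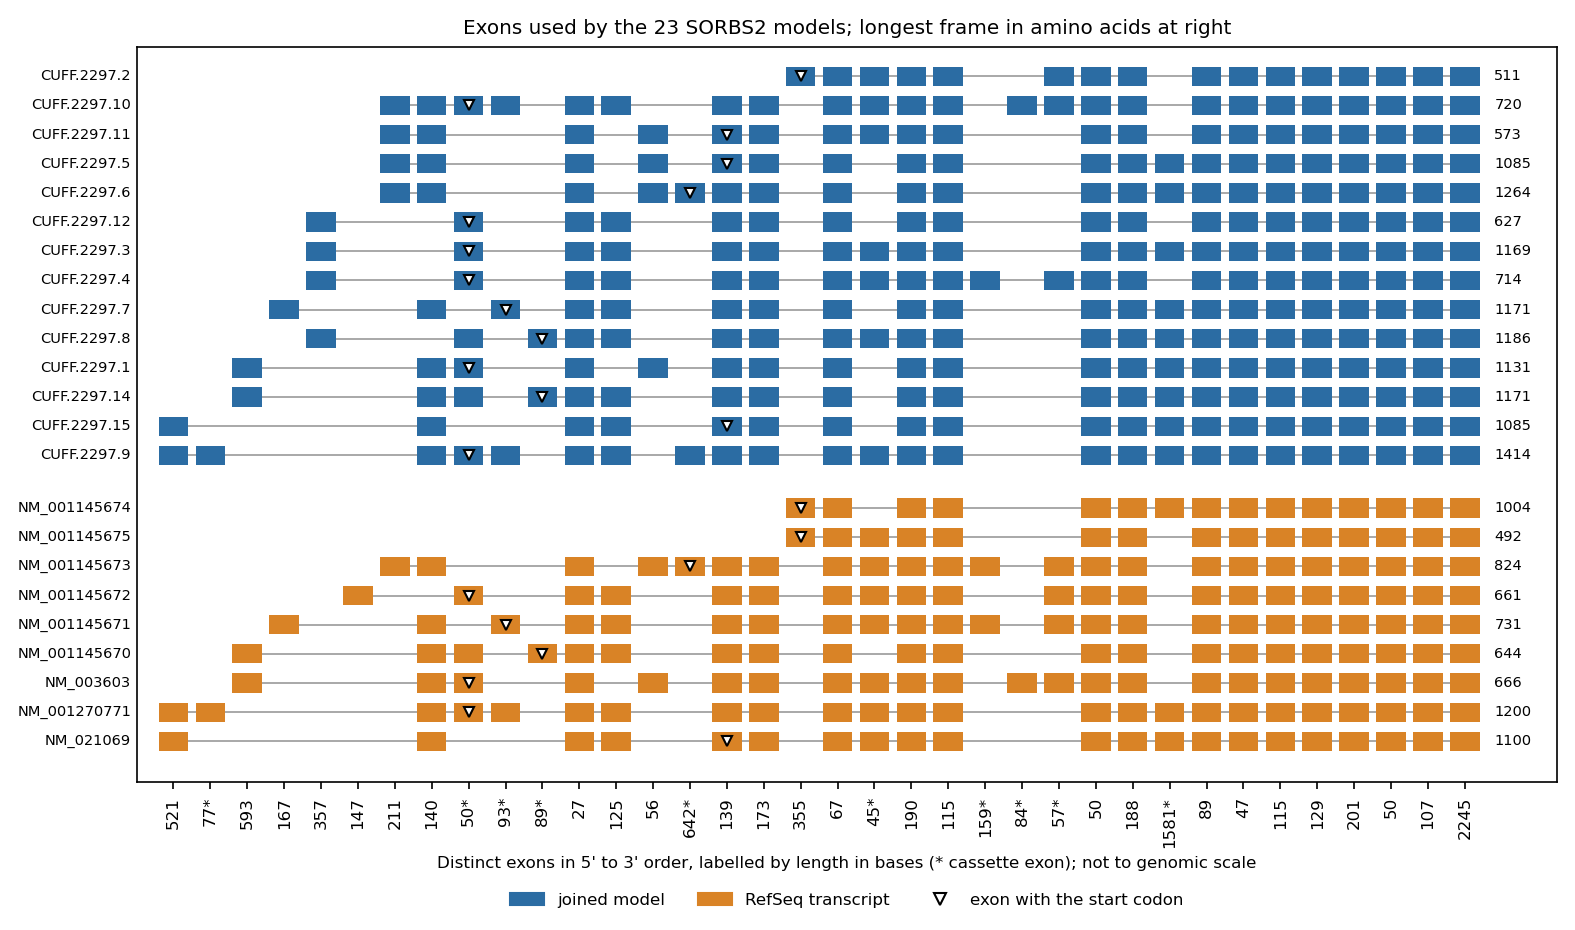
Each row is 1 SORBS2 model, the 14 joined models above the 9 RefSeq transcripts, and each column is 1 of the 36 distinct exons from 5′ to 3′, labelled by its length in bases and not drawn to genomic scale. Filled boxes are exons used, triangles mark the exon with the start codon, and the number at the right is the longest reading frame in amino acids; variation lies mostly to the left of the shared 67-base exon, and the right end is the same in every row.

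Which start codon a SORBS2 model used followed from its 5′ exons. The ATG in the 50-base exon, chr4:186611716-186611765, opened the longest frame of 6 joined models and 3 RefSeq transcripts, with products of 627 to 1414 amino acids. The ATG shared by the 93- and 89-base exons opened that of 3 joined models and 2 RefSeq transcripts. Their products had 644 to 1186 amino acids. The ATG of the 139-base exon, which 20 of the 23 models held, served 3 joined models and 1 RefSeq transcript that lacked the upstream ones. The ATG in the 642-base exon served 1 joined model and 1 RefSeq transcript, and the one in the 355-base first exon served 1 joined model and 2 RefSeq transcripts. All 5 are annotated coding starts in GENCODE, in 18, 11, 3, 11 and 4 transcripts in 5′ to 3′ order. The joined models had 331 to 858 bases before the ATG (median 457, n = 14), and the RefSeq transcripts had 187 to 858 (median 584, n = 9). The ranges overlapped almost entirely.

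A difference of 4 bases at 1 splice acceptor set the reading frame that followed the first of these start codons. The exon at chr4:186605908-186606000 has 93 bases, and its shorter form, ending at 186605996, has 89. The junction is printed from chr4:186605985-186606012 on the minus strand, with the bases found only in the longer form in capitals.
Tandem acceptor: ttttgcttccagATAGcggtgggtgtgc
The longer form was in 3 joined models and 2 RefSeq transcripts, and the shorter form was in 2 joined models and 1 RefSeq transcript. The 3 models with the shorter form also held the 50-base exon. In them the ATG of the 50-base exon led to a frame of only 17 amino acids, whose stop lay 3483, 3438 and 1857 bases before the last exon junction in CUFF.2297.8, CUFF.2297.14 and NM_001145670. Their longest frames, of 1186, 1171 and 644 amino acids, began at the second ATG. In the models with the 50-base exon and the 93-base form, and in those with the 50-base exon and neither form, the first ATG stayed in frame to the common stop. A second pair of acceptors, at the exon beginning at 186599577, gave forms of 125 and 56 bases. Their difference of 69 bases keeps the frame. The 125-base form was in 9 joined models and 5 RefSeq transcripts, and the 56-base form was in 4 joined models and 2 RefSeq transcripts.

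SORBS2 had 10 cassette exons, each included by some models and skipped by others, and the RefSeq transcripts alone gave the same 10. The 93- and 89-base forms, which differ only at their acceptor, were counted separately. Of these, 7 had a length that is a multiple of 3, so that their inclusion keeps the reading frame. The other 3, of 77, 50 and 89 bases, all lay at the 5′ end, before or at the start codons. The 4 small cassette exons after the shared 67-base exon are printed here whole, 5′ to 3′ on the minus strand of hg19, because they and the 1581-base exon are the only parts of the 3′ portion of the gene that differed between models.
45-base exon, chr4:186572938-186572982: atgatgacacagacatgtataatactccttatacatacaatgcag
159-base exon, chr4:186560031-186560189: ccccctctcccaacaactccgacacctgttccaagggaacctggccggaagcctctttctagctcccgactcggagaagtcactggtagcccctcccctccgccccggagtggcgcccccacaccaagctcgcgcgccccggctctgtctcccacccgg
84-base exon, chr4:186559233-186559316: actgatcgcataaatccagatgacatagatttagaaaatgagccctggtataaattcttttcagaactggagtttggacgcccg
57-base exon, chr4:186556509-186556565: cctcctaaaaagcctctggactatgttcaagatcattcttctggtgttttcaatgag
These exons differed in composition. The 159-base exon had 68.6% GC and encoded 53 residues, of which 30.2% were proline and 28.3% serine or threonine. The 84-base exon added 28 residues with 28.6% aspartate or glutamate. The 57-base exon added 19 residues with 15.8% proline. The 45-base exon had 33.3% GC and added 15 residues, and 25% of the residues its codons touch were aspartate or glutamate.

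The 45-base exon was in 7 joined models and 7 RefSeq transcripts, which is 50% of the joined models and 77.8% of the RefSeq transcripts. The 57-base exon was in 3 joined models and 4 RefSeq transcripts. The 159-base exon, in 1 joined model and 2 RefSeq transcripts, and the 84-base exon, in 1 of each, were found only in models that also had the 57-base exon, and never together. At the 5′ end, the 50-base exon was in 8 joined models and 4 RefSeq transcripts, the 642-base exon was in 2 joined models and 1 RefSeq transcript, and the 77-base exon was in 1 of each.

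The largest cassette exon, chr4:186544068-186545648, had 1581 bases and was in 9 of 14 joined models (64.3%) and 3 of 9 RefSeq transcripts (33.3%). It adds 527 residues and encodes the single match of SORBS2 to the C2H2 zinc finger pattern, in which paired cysteines and histidines hold a zinc ion. The stretch that encodes the match is given from chr4:186544534-186544602, minus strand, with the codons of the 2 cysteines and 2 histidines in capitals.
Zinc finger stretch: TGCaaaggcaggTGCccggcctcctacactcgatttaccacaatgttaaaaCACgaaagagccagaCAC
In the assembly this exon was never in a model with the 159-, 84- or 57-base exon, whereas 3 joined models and 2 RefSeq transcripts held it together with the 45-base exon. Of the 14 joined models, 9 had the 1581-base exon without those 3 exons, 3 had at least 1 of the 3 without it, 2 had neither and 0 had both. Of the 9 RefSeq transcripts, 3 had the large exon without those 3, 4 had at least 1 of the 3 without it, 2 had neither and 0 had both. GENCODE was not part of the assembly, but its 19 SORBS2 transcripts that span the region include the chains of all 9 RefSeq transcripts. Of the 19, 2 combined the large exon with at least 1 of the 3, and 4 had the large exon without the 3. Another 8 had at least 1 of the 3 without the large exon, and 5 had neither. The pattern in the assembly was therefore not a general rule of annotated SORBS2 transcripts.

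**Figure D2:**
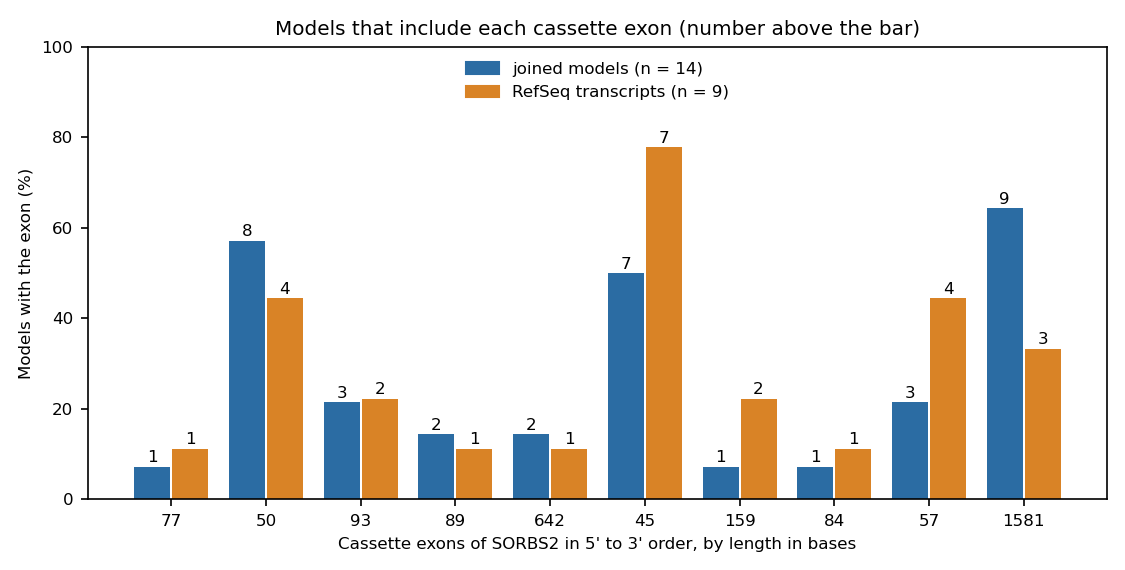
Bars give the percentage of the 14 joined models and of the 9 RefSeq transcripts that include each of the 10 cassette exons, with the number of models above each bar and the exons in 5′ to 3′ order by length in bases. The 93- and 89-base entries are acceptor forms of the same exon. The 1581-base exon stands at 64.3% of joined models and 33.3% of RefSeq transcripts, and the 45-base exon at 50% and 77.8%; models are counted, not transcript abundance.

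The longest frames of all 23 SORBS2 models ended at the same stop codon, at position 186508781 in the last exon, and 0 of these frames had a stop more than 50 bases before the last junction. Their last 266 residues were the same. The longest frames of the joined models had a median of 1108 amino acids (511 to 1414, n = 14), and those of the RefSeq transcripts had a median of 731 (492 to 1200, n = 9). The ranges overlapped. The 1581-base exon itself adds 527 residues in frame to each model that holds it, so the frames are also given with and without it. With it, joined models had 1085 to 1414 amino acids (n = 9) and RefSeq transcripts 1004 to 1200 (n = 3). Without it, joined models had 511 to 720 (n = 5) and RefSeq transcripts 492 to 824 (n = 6). Spliced lengths were 4050 to 7206 bases in joined models (median 6064) and 3993 to 6564 bases in RefSeq transcripts (median 4957).

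None of the 14 joined models encoded the frame of a RefSeq transcript in the assembly, and the 23 models held 21 distinct frames. CUFF.2297.5 and CUFF.2297.15 shared a frame of 1085 amino acids from different first exons, of 211 and 521 bases. CUFF.2297.7 and CUFF.2297.14 likewise shared 1 of 1171 amino acids, from the 167- and 593-base first exons. The longest frame of all, 1414 amino acids, belonged to CUFF.2297.9. Its 25 exons combine the far 5′ first exon and the 77-, 50-, 93- and 642-base exons with the 45-base and the 1581-base exon. CUFF.2297.6, which begins with the 211-base first exon and holds both the 642- and the 1581-base exon, had 1264. None of the 9 RefSeq transcripts in the assembly held both the 642- and the 1581-base exon. These 2 joined models were the only ones with a frame above 1200, which was that of the longest-frame transcript among the 9. The assembly assigned all 14 joined models to that transcript, NM_001270771, as the nearest RefSeq transcript, and 12 of the 14 frames were shorter than its frame. Set against the RefSeq transcript with which each shared the most introns, of which there were 6, 7 joined frames were longer and 7 shorter. Ties in shared introns went to the transcript closest in number of introns. CUFF.2297.3 and CUFF.2297.1, counted as longer, shared as many introns, 18 and 16, with NM_001270771. Their frames of 1169 and 1131 amino acids were shorter than its 1200.

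**Figure D3:**
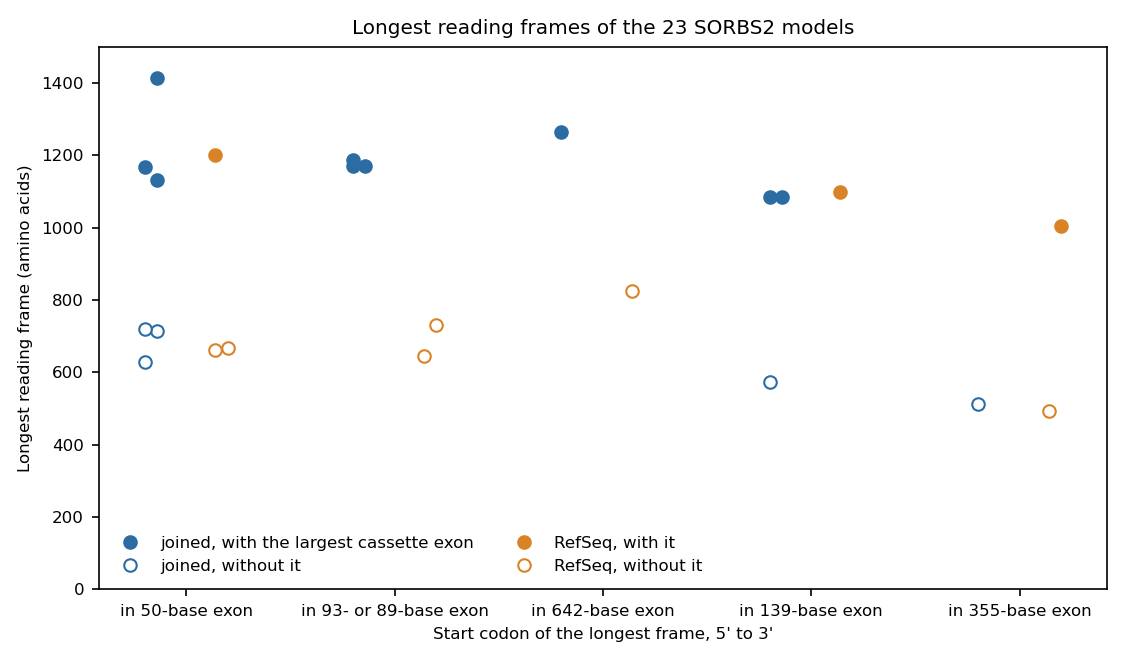
Each point is the longest reading frame of 1 SORBS2 model in amino acids, placed by the exon that holds its start codon, with joined models left of RefSeq transcripts in each column. Filled points hold the 1581-base cassette exon and all have at least 1004 amino acids; open points lack it and have at most 824.

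Every one of the 44 introns used by joined models was also in a RefSeq transcript, had GT and AG at its ends and was in GENCODE. They had 85 to 180829 bases. The joined models therefore differed from the RefSeq transcripts of the assembly in how annotated introns were combined. Of the 14, 9 were made of 2 runs of RefSeq introns and 5 of 3 runs, where a run is an unbroken stretch found in 1 transcript. CUFF.2297.5, CUFF.2297.8, CUFF.2297.9, CUFF.2297.10 and CUFF.2297.11 were those of 3 runs. Each run was read from the 5′ end and extended as far as a RefSeq transcript allowed, so where runs change over is not unique. Placed in this way, they changed over at 19 points, with 6 at the 67-base exon, chr4:186573816-186573882, 5 upstream and 8 downstream. That exon is the most 5′ one that all 23 models share. From it onward every joined model followed a RefSeq transcript, so the 8 downstream points could equally be placed there.

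Cut at that shared exon, SORBS2 had 13 versions of its 5′ portion, of which joined models used 11 and RefSeq transcripts used 8. It had 7 versions of its 3′ portion, and both joined models and RefSeq transcripts used all 7. All 14 joined models had a 3′ portion of a RefSeq transcript, so the lack of joined models with both the 1581-base exon and any of the 159-, 84- and 57-base exons came with those portions. In 6 of them the 5′ portion was that of another RefSeq transcript, and in the other 8 it was found in no RefSeq transcript of the assembly. Portions were compared by their exons, including where the first exon starts. Of the 8, CUFF.2297.3, CUFF.2297.4 and CUFF.2297.12 had the 5′ introns of NM_001145672 and differed from it there only in the start of the first exon. The 8 and 7 RefSeq versions could be paired in 56 ways, of which joined models filled 6 and RefSeq transcripts 9. The 3′ version with the 1581-base exon and without the 45-base exon was the most frequent among the joined models, at 6, whereas 1 RefSeq transcript had it, NM_001145674, which begins at the most 3′ start site. In the joined models it was attached to 5′ portions from the 211-, 167-, 593- and 521-base first exons. None of the 14 joined chains matched a GENCODE transcript of SORBS2 or was contained in one, whereas all 9 RefSeq chains matched. GENCODE listed 73 transcripts of the gene, 51 of them protein-coding. A newer RefSeq annotation listed 42 NM transcripts of SORBS2, the 9 of the assembly among them. The joined models were not compared with it.

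The tags that Cufflinks assigns gave less than the exons. The start site groups TSS22141 to TSS22146 numbered 6, and TSS22144 pooled the 357- and the 167-base first exons, which share a start but differ in their donor. That group had the most joined models, 5, beside 1 RefSeq transcript, and TSS22143, the 147-base first exon, had 0 joined models and 1 RefSeq transcript. Protein tags were given to none of the joined models and to each of the 9 RefSeq transcripts, 1 apiece (P24216 to P24224). The differences between the joined frames were therefore visible only from the genome sequence.

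SORBS3 was far smaller and had no joined model to compare. On hg19 it lay at chr8:22409251-22433008 on the plus strand, a span of 23758 bases, and had 2 RefSeq transcripts and 0 joined models. The long transcript, NM_005775, had 21 exons and 3123 spliced bases and read 671 amino acids from an ATG at 22412020 in its 157-base exon. The short transcript, NM_001018003, had 10 exons and 2040 spliced bases and read 329 amino acids from an ATG at 22423934 in a 140-base exon. Each had its own first exon (285 and 207 bases), start site group (TSS28087 and TSS28088) and protein tag (P29044 and P29045). The short transcript begins inside the gene, at chr8:22423179-22423385, where its first exon runs into the 47-base exon of the long one and ends at the same donor. From there the 9 remaining exons were common to both. The short frame was identical to the end of the long frame, and 342 residues were found in the long one alone. The known alpha and beta forms of vinexin differ in this way. SORBS3 had 0 cassette exons, but exons upstream of the short transcript lie in 1 model only, so their skipping could not be seen. Its 20 introns had 98 to 3142 bases, and both chains were in GENCODE. Of the 4155 genes with 2 RefSeq transcripts, 249 (5.99%) had a joined model, so most genes with as many transcripts had none either.

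SORBS2 and SORBS3 showed partly related exon structures beneath this difference in transcript number. The frame of SORBS2 without the 1581-base exon, NM_003603, was aligned with the long frame of SORBS3. Of 576 aligned residues, 238 (41.3%) were identical. The exons with the highest identity lay towards the end, where the SH3 domains lie, but other exons after the 188-base exon had 29.6% to 47.6%. The coding part of the last exon had 14 of 20 residues identical (70%), the 107-base exon 24 of 35 (68.6%) and the second 115-base exon 25 of 38 (65.8%). The SORBS3 exons that align with the last 2 of these have the same lengths, 107 and 115 bases. Other exons did not pair in this way. The 201-base exon and the 50-base exon after it both had most of their aligned residues in a 312-base SORBS3 exon. The 190-base exon had most of its aligned residues in a 67-base SORBS3 exon. A separate peak was at the shared 67-base exon, with 13 of 21 (61.9%), which aligned with a 64-base exon of SORBS3. The 188-base exon between these stretches had 12 of 56 (21.4%). The 84-, 57- and 45-base cassette exons of SORBS2 aligned with SORBS3 exons of 87, 54 and 39 bases. Identical residues were 10 of 27 (37%), 6 of 19 (31.6%) and 3 of 9 (33.3%). Only the long SORBS3 transcript spans those SORBS3 exons, so whether they are skipped could not be seen in the SORBS3 models. The short SORBS3 frame had 134 of 273 residues identical to SORBS2 (49.1%).

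**Figure D4:**
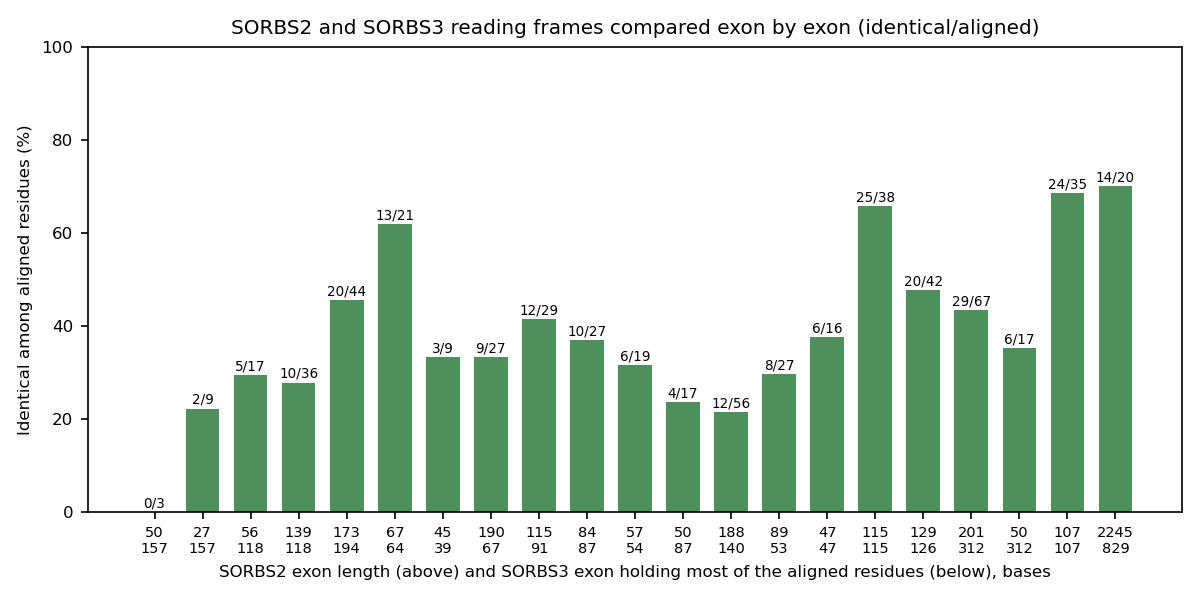
Bars give the percentage of identical residues among those aligned between the SORBS2 frame NM_003603 and the SORBS3 frame NM_005775, for each coding SORBS2 exon from 5′ to 3′, with identical and aligned residues above the bar. Labels give the SORBS2 exon length and, beneath it, the length of the SORBS3 exon with most of the aligned residues; the highest bars are the last exon at 70% and the 107-base exon at 68.6%.

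Among genes of similar annotation, SORBS2 was at the upper end in joined models, which is how it was selected. On chromosomes 1 to 22, X and Y, 84 genes had 9 RefSeq transcripts, and 59 of them had a joined model, with a median of 1 and at most 10 in a gene other than SORBS2. The 5 genes closest to SORBS2 in the numbers of RefSeq transcripts, introns and first exons (9, 44 and 6 for SORBS2) were PPFIA2, NEDD4L, TBC1D3H, PDE4DIP and EIF3C. They had 3, 5, 0, 7 and 3 joined models. PPFIA2, which encodes the synaptic scaffold liprin-α2, was the closest, with 10 transcripts, 46 introns and 6 first exons.

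Of 32 adhesion, cytoskeleton, endocytosis and postsynaptic genes listed as partners or neighbours of the SORBS proteins, 12 (37.5%, exact Clopper-Pearson 95% interval 21.1 to 56.3%) had a joined model, beside 12.4% of all multi-exon genes. The median number was 0 in both. The interval covers counting error only, and the list was written with earlier results of these data known. These genes had more RefSeq transcripts than most, with a median of 2 against 1 over all multi-exon genes. Of the 15 with 3 or more RefSeq transcripts, 12 had a joined model, beside 2328 of all 5129 genes with 3 or more (45.4%). Transcript number within that range was not matched. DLGAP1, a postsynaptic scaffold that binds SH3 domains, had 5 joined models, MLLT4, the junction protein afadin, 4, and SYNJ1, a lipid phosphatase of endocytosis, 3. The adhesion genes PXN (paxillin) and ITGB1 (integrin beta chain) and the kinase gene ABL2, from whose other name Arg the name ArgBP2 derives, had 2 each. PTK2 (focal adhesion kinase), PALLD (palladin), SPTAN1 (spectrin), the dynamins DNM1 and DNM2, and LPP had 1 each. VCL, which encodes vinculin and has 2 RefSeq transcripts, and ABL1 had 0.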

How the data were processed

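RNA of 3 induced and 3 negative control EndoC-βH1 libraries was analysed from 1 merged assembly. The deposited file gives, in bases counted from the chromosome's start, the position of each exon, a unit other than expression, with tags for gene name, nearest RefSeq transcript, class, start site and protein. The submitters' processing notes name TopHat2 and Cufflinks, with no version, and the build hg19. For the settings of both tools, the sources used here give nothing. No value per library was in it, so depth is unknown, and the planned limma fits of FPKM values were replaced by descriptions.

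Models were rebuilt in Python 3.11.15 (pysam 0.24.0 for sequence, scipy 1.17.1 for intervals, numpy 2.4.6). A cassette exon was an internal exon that another model skips by 1 intron joining the same neighbours. Frames were the longest from ATG to stop on the spliced GRCh37 genome, which was read by hg19 coordinates. Frames were aligned globally with Biopython 1.88 (BLOSUM62, gap open 11, extend 1, end gaps free). Chains were compared with GENCODE 44 mapped to GRCh37, requiring identical introns. Promoter windows came from RefSeq's table for GRCh38 and were located on hg19 by their sequence. The code was tested on made-up models with known answers.

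Named were all models of SORBS2 and SORBS3, genes of the partner list with a joined model, and the 5 genes nearest in log2 numbers of RefSeq transcripts, introns and first exons. VCL and ABL1, as main partners without one, were added after their values were seen. A further gene of the partner list was left out and is not reported here. Members and lists were chosen with earlier results of these data known. Alternatives were other definitions of first exon, cassette exon, frame, chain match, nearest transcript, likeness and background.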

Additional observations from a re-analysis of the deposited data

How the results depend on the processing

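No paired analysis was possible because the assembly holds no value per library. Fits with the replicate number as a block, or with 1 replicate left out, could not be run for the same reason. Of 23 alternative values, 17 were equal to the main ones, and 4 counts differed from them by less than 1.5 times, the tolerance set for a count. The number of SORBS2 joined models with a longer frame than their RefSeq transcript was 7 when the transcript with the most shared introns was used, against 2 with the tagged nearest transcript. The alternative's construction shows the cause, since the tagged transcript has the longest frame among the assembly's RefSeq transcripts. The 7 also depends on how ties in shared introns were settled. The share of multi-exon genes with a joined model was 13.5% over genes with a RefSeq transcript of at least 3 exons, against 12.4%; single-intron genes leave the denominator. Within that tolerance, SORBS2 first exons numbered 6 rather than 7 when counted by donor or by start site group, cassette exons 11 rather than 10 when any spanning model could skip them, and the median joined models at the 5 most similar genes was 4 rather than 3 by transcripts alone. Depth limits which models could be assembled, and it is unknown here, so a model that is not listed is not shown to be absent from the cells. Reads across the exons that a model combines were not analysed here.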
